A study of Mus musculus with 8 samples.

Results

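The complement and coagulation factors that hepatocytes secrete were followed as 39 genes, taken by symbol from a written list, among the 25229 genes counted in these libraries. Of the 39, 17 belong to complement, 17 to coagulation, and 5 to fibrinolysis or to the adhesive glycoproteins of plasma. All 39 were found and passed the filter on low counts, so 39 of 39 were tested. The list names genes by function, and was drawn up with earlier results of these data known.

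Bulk RNA sequencing was done on liver cells enriched for hepatocytes by collagenase perfusion and a Percoll gradient, from 8 mice of strain C57BL/6. The mice fall into 3 groups: 3 flox/flox mice (Ifih1-/-, Adar1 flox/flox, Alb-Cre+), 2 wt/flox mice (Ifih1-/-, Adar1 wt/flox, Alb-Cre+) and 3 wt/wt mice (Ifih1-/-, Adar1 wt/wt, Alb-Cre+). Every group therefore lacks Ifih1, the gene of the cytosolic RNA sensor MDA5, and carries Cre under the albumin promoter, which is active in hepatocytes, while ADAR1 is the adenosine deaminase that edits double-stranded RNA. Replicates 1, 2 and 3 were 11, 9 and 7 weeks old in each group, as far as the group has them. For flox/flox the submitters' design note gives n = 2, but 3 libraries carry that genotype label, and all 3 were used. Which exons of Adar1 are floxed is not given in the sources used here.

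As background, complement is a cascade of plasma proteins in which lectins or antibodies activate serine proteases that cleave C4, C2 and C3, and whose last components assemble into a pore in the target membrane. Coagulation is a second protease cascade, which ends with thrombin turning fibrinogen into fibrin, and fibrinolysis dissolves that fibrin again. The hepatocyte is the main source of most of these proteins, of the serpins that inhibit them and of the cofactors that control them, and several of them belong to the acute-phase proteins.

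Sense gene reads ran from 75875711 to 132303735 per library, and the smallest count of any of the 39 genes in any library was 713 reads, for C6. Levels are given as CPM, counts scaled by the TMM-adjusted library size except for the marker sums below, and are listed by replicate number. Adar, counted over the whole gene, was at 49.4, 35.9 and 42.0 CPM in flox/flox, 22.0 and 31.8 CPM in wt/flox and 28.1, 30.0 and 53.6 CPM in wt/wt. It was not lower in flox/flox, so the gene count does not check the genotype labels, and flox/flox, wt/flox and wt/wt below mean the libraries so labelled. Xist and Y-linked transcripts matched the labelled sex in 6 of 8 libraries and went against it in flox/flox replicates 1 and 2, labelled female and male but male and female by transcripts. Whether the labels of these libraries were exchanged was not tested, and their replicate numbers and ages are given by label. Sex was therefore taken from the transcripts, which gave 3 female libraries (flox/flox replicates 2 and 3, wt/wt replicate 3) and 5 male ones. The deposited files of flox/flox and wt/flox carry a batch mark that those of wt/wt lack, so that genotype and batch cannot be told apart in either comparison with wt/wt. Reads that aligned to several places made up 3.9% to 5.0% in the marked files and 9.0% to 10.9% in wt/wt. Of the other reads, those on no gene in sense made up 31.65% to 40.01% in the marked files and 22.2% to 28.1% in wt/wt.

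Hepatocyte markers dominated: the summed CPM of 12 of them, albumin and transthyretin included, ran from 168600 to 234400 in flox/flox, 164600 to 171500 in wt/flox and 137000 to 156400 in wt/wt. The marker sums in this paragraph are scaled by library size alone, whereas the calls and fold changes beside them use TMM. The 12 sinusoidal endothelial markers summed to 83.6 to 187.6 CPM in flox/flox, 94.8 to 103 CPM in wt/flox and 230.8 to 370.5 CPM in wt/wt, and 10 of the 12 fell in flox/flox against wt/wt. The 14 Kupffer cell markers summed to 33.7 to 134.3 CPM in flox/flox, 35.2 to 38.5 CPM in wt/flox and 81.2 to 344 CPM in wt/wt, with 3 of 14 called lower in flox/flox. Of the hepatocyte markers 3 of 12 rose in flox/flox against wt/wt, with a median log2 fold change of 0.31 over the 12. Of other lists, 1 of 11 stellate cell markers was called lower, and 1 of 6 tested cholangiocyte markers and 1 of 3 tested platelet markers were called higher. No hepatocyte, endothelial or Kupffer marker was at 0 reads in a whole group, and the part of cell composition in the results below was not tested. In bulk RNA, fewer cells of a type and less RNA per cell cannot be told apart.

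Promoter sequences are shown for the members that move as sets in the results: the 3 fibrinogen chains, whose levels kept a near-constant ratio, and C6, C8a, C8b and C9, whose female libraries lay below the male ones. Each is the 250 bases before the annotated start from RefSeq (GRCm38.p6), written 5′ to 3′ on the gene's strand, with matches to the searched motifs in capitals. GENCODE M21, used for gene coordinates, places the starts of Fga, C6 and C9 earlier, at 83026076, 4727175 and 6445327. By that annotation the last bases of these windows lie inside the gene, among them the capitals nearest the start in Fga. The windows are Fga chr3:83025903-83026152 on the plus strand, Fgb chr3:83049864-83050113 on the minus strand, Fgg chr3:83007474-83007723 on the plus strand, C6 chr15:4726960-4727209 on the plus strand, C8a chr4:104876399-104876648 on the minus strand, C8b chr4:104766067-104766316 on the plus strand and C9 chr15:6445096-6445345 on the plus strand.
Fga: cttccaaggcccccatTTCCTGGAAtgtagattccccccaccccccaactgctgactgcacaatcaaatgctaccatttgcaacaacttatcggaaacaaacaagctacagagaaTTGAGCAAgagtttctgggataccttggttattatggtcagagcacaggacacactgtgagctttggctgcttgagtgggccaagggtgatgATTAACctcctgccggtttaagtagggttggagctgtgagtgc
Fgb: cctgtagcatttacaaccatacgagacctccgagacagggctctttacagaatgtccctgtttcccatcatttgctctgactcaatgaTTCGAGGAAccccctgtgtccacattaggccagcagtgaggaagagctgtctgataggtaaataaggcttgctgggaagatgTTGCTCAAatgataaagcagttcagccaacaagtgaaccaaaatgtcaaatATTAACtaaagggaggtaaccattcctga
Fgg: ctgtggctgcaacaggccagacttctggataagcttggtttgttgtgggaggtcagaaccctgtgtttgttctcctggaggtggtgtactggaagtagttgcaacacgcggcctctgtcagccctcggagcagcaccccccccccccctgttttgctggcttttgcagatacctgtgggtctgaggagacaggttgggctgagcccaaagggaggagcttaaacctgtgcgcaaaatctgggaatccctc
C6: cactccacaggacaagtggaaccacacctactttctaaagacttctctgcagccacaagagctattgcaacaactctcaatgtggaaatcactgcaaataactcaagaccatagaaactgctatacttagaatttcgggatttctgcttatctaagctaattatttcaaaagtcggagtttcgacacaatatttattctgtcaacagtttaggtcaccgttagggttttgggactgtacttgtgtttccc
C8a: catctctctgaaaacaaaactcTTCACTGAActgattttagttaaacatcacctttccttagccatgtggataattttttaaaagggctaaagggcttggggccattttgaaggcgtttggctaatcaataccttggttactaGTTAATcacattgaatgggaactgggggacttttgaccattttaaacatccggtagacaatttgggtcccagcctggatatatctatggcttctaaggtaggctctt
C8b: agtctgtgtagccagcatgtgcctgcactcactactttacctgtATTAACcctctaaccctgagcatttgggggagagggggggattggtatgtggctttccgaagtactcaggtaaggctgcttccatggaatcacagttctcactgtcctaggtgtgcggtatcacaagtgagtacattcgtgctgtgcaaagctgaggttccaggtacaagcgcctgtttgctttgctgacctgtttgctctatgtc
C9: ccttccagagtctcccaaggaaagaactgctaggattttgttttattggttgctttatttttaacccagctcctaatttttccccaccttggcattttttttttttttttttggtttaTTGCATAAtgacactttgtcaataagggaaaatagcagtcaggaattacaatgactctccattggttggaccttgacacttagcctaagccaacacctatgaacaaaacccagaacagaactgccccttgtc

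The letters searched on both strands were GTTAAT (a partial site of HNF1), TTGCNNAA (C/EBP), TTCNNNGAA (STAT) and CAAAGTCC (HNF4), and no 2 matches in these windows overlap. Fga and Fgb each hold 1 match to the HNF1, C/EBP and STAT letters, at −43 to −38, −135 to −128 and −234 to −226 from the start in Fga, and at −29 to −24, −80 to −73 and −162 to −154 in Fgb. Fgg and C6 hold no match to any of the 4. C8a holds the HNF1 and STAT letters, C8b the HNF1 letters and C9 the C/EBP letters. RefSeq windows were matched for 30 of the 39 members, and not for Masp1, C2, C4b, Cfb, Cfi, Serping1, Kng1, Proc and Plg. The HNF1 letters occur in 8 of these 30 (26.7%) and in 6.43% of 32851 promoter windows of this length, the C/EBP letters in 8 (26.7%) and 9.56%, the STAT letters in 6 (20%) and 7.02%, and the HNF4 letters in 0 and 1.2%. A member was counted if any of its windows matched, whereas the second share is of single windows. This can raise the members' shares, so the 2 shares are not strictly alike. These are matches of letters and not measured binding.

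Transcript levels, set against each other as CPM per kilobase of exon, spanned from 3023 ± 1264 (SD over 8 libraries) for C3, the central component of complement, to 19.0 ± 5.47 for Masp1, a protease of the lectin pathway. The length used joins all annotated exons of a gene and can exceed that of the expressed transcript. The order between genes therefore depends on these lengths, of which Masp1 has the longest, 9833 bases. C3 ranked 15 among 14407 genes with a length, and the fibrinogen chains Fga, Fgg and Fgb followed at 2183 ± 629.9, 2161 ± 564 and 1349 ± 374 CPM per kilobase. Vtn (vitronectin, an adhesive protein that also restrains the complement pore) was at 1307 ± 249, Kng1 (kininogen) at 757 ± 227 and Plg (plasminogen) at 704 ± 150.0 CPM per kilobase. By CPM per kilobase, C3, Fga, Vtn, Kng1 and Plg were the highest members of their roles, as were Cfi (403 ± 88.9), F2 (364 ± 56.8), Hc (344 ± 134), Serpind1 (334 ± 87.7) and Mbl2 (275 ± 81.0 CPM per kilobase). In CPM not divided by length, Serpinc1 (8546 bases of exon) was above Serpind1 (2191 bases) in every library. Besides Masp1, the lowest were Pros1 (20.0 ± 6.26), C2 (42.3 ± 15.7) and F11 (59.5 ± 17.4 CPM per kilobase). Most neighbours in this order do not differ beyond their spread: of 38 neighbouring pairs, 5 kept their order in every library, namely Fgg above Fgb, Vtn above Kng1, Cfb above Serpinf2, F11 above C2 and C2 above Pros1. In CPM not divided by length (3810 bases for Fgb, 2093 for Fgg), Fgb was above Fgg in every library. Together the 39 genes took 6.64%, 7.16% and 6.90% of sense gene reads in flox/flox, 6.15% and 6.80% in wt/flox and 4.64%, 4.70% and 6.11% in wt/wt. The third wt/wt library, female and 7 weeks old, lay below the lowest wt/flox library by this measure but close to it, and well above the other wt/wt libraries.

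**Figure D1:**
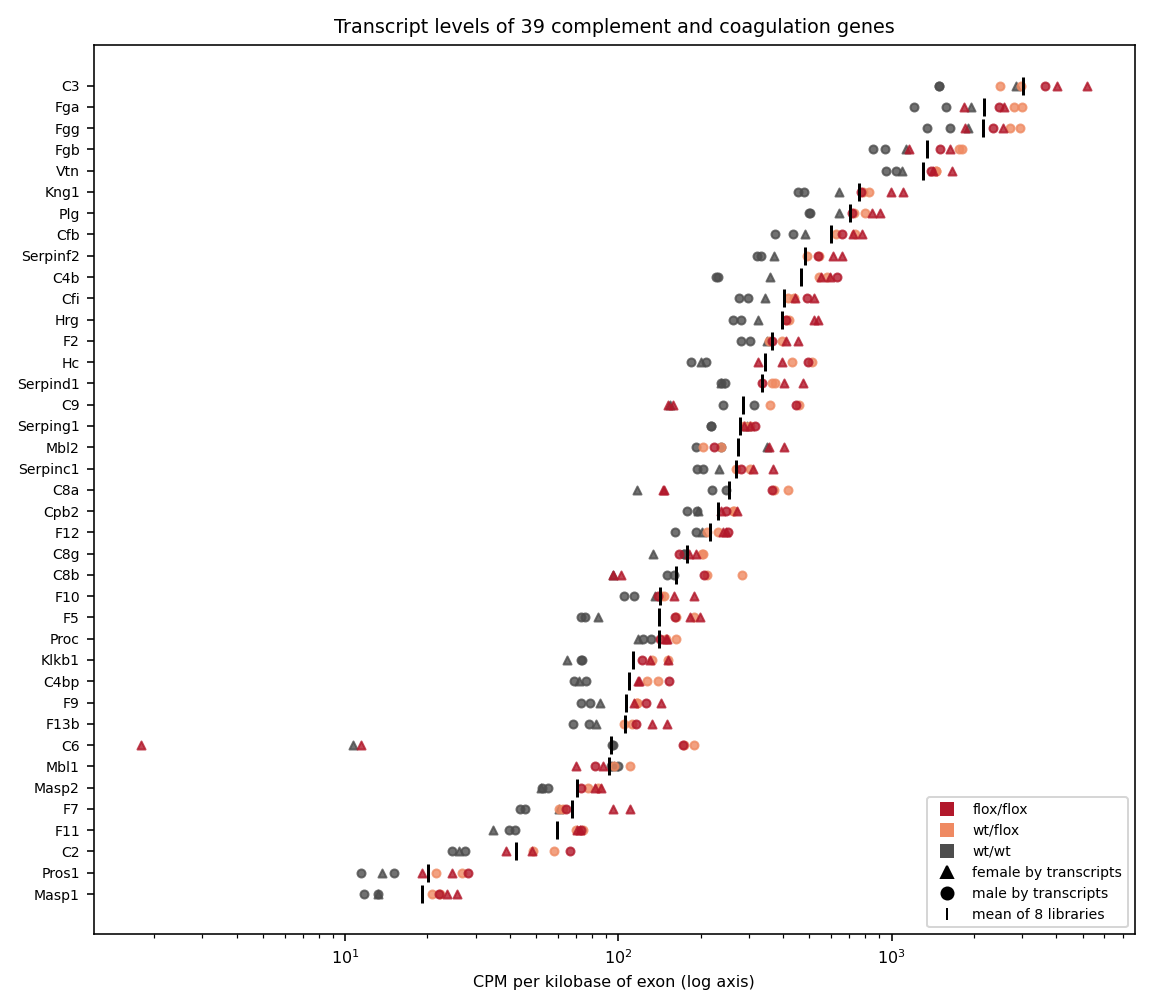
Level of each of the 39 genes in CPM per kilobase of exon (log axis), 1 point per library, with genes ordered by their mean over 8 libraries (bars). C3 and the fibrinogen chains stand at the top and Pros1 and Masp1 at the bottom, and C6 has 3 female libraries far to the left of the 5 male ones.

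In flox/flox against wt/wt, 25 of the 39 genes rose and 0 fell, where 14.5% of 14728 tested genes rose and 14.6% fell (edgeR quasi-likelihood test, Benjamini-Hochberg adjusted p up to 0.05, with sex in the fit). The called changes ran from 1.31-fold to 2.22-fold. By role, 10 of 17 complement genes, 10 of 17 coagulation genes and 5 of 5 fibrinolysis and adhesive genes rose. At an unadjusted p under 0.05 there were 29 of the 39, against 42.8% of all tested genes. The median log2 fold change over the 39 was 0.57, against 0.01 over all tested genes. In 29 of the 39 every flox/flox library lay above every wt/wt library, against 23% of all tested genes, and in 1, Mbl1, every one lay below, against 22%. The 14 genes that did not pass were Mbl1, Mbl2, C6, C8b, C8g, C9, Serping1, F2, F10, F12, Fga, Fgb, Fgg and Proc.

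In wt/flox against the same wt/wt libraries, 23 of the 39 rose and 0 fell, where 7.58% of tested genes rose and 6.9% fell. These were 8 of 17 complement, 11 of 17 coagulation and 4 of 5 fibrinolysis and adhesive genes, with a median log2 fold change of 0.63 over the 39 and −0.05 over all tested genes. In 35 of the 39 both wt/flox libraries lay above every wt/wt library, against 25.8% of tested genes. Of the 39, 21 rose in both comparisons, 4 (C3, Cfi, Serpinc1 and Vtn) passed in flox/flox alone and 2 (Fgb and Fgg) in wt/flox alone. As both comparisons use the same wt/wt libraries, they are not independent of each other, and passing in 1 alone does not show a difference between flox/flox and wt/flox.

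These counts depend on single libraries. In flox/flox against wt/wt, 11 genes passed without flox/flox replicate 1 (12.3% of all genes tested in that fit), and 15 without wt/wt replicate 3 (17.8%). Leaving out both libraries whose sex went against the label, and so all but 1 flox/flox library, 3 passed (6.94%). Scaled by library size alone, 14 passed (13 higher, 1 lower), which is near the share of all genes called in either direction in that fit, 32.9%. The median log2 fold change in that fit was 0.24 over the 39 and −0.32 over all genes. In wt/flox against wt/wt, 0 members and 0 of all genes passed in edgeR without wt/flox replicate 1, wt/flox replicate 2, wt/wt replicate 1 or wt/wt replicate 2, with 27 to 28 members at an unadjusted p under 0.05 in each of these 4 fits (with all libraries, 32 members and 32.8% of tested genes). Masp1, C4bp, F5, F11, F13b, Klkb1 and Serpinf2 passed in flox/flox against wt/wt whichever single library was left out, and F5, F11 and Klkb1 passed under each of the 23 alternatives run.

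**Figure D2:**
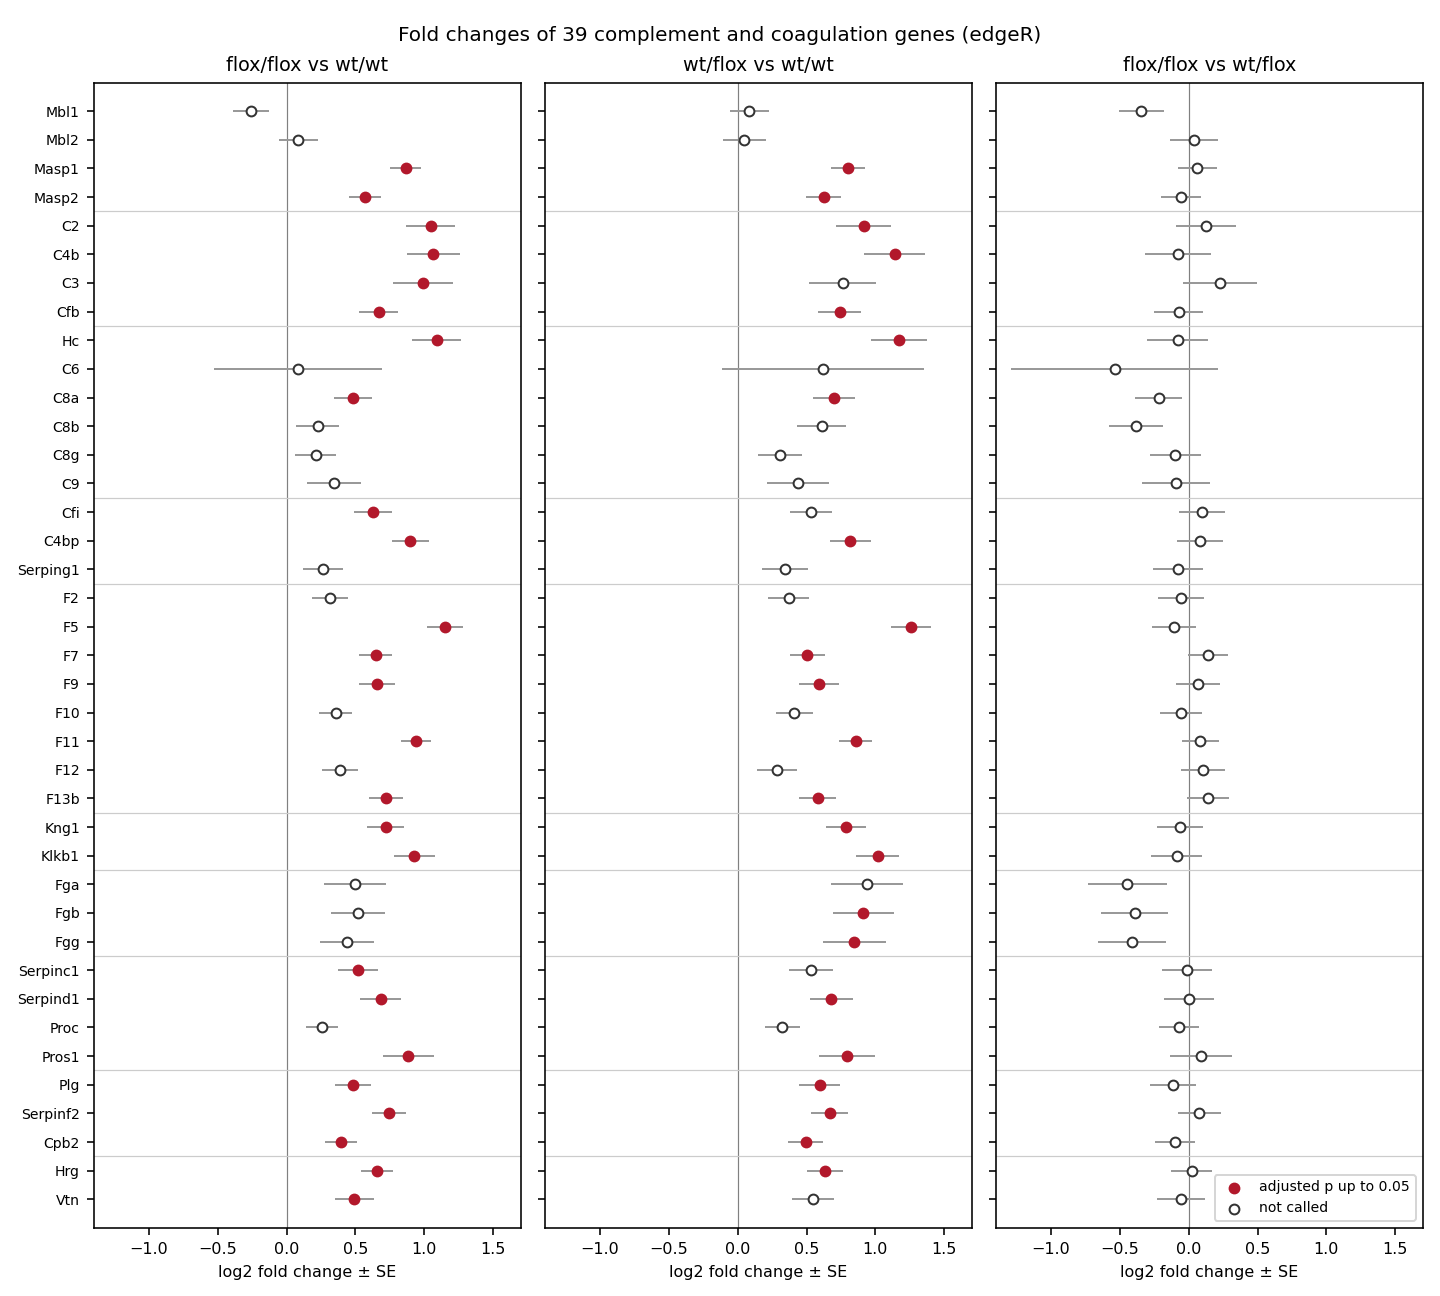
Fitted log2 fold change ± SE of each of the 39 genes in flox/flox against wt/wt, wt/flox against wt/wt and flox/flox against wt/flox, grouped by role, with filled points for an adjusted p up to 0.05. The points lie mostly right of 0 in both comparisons with wt/wt, with F5 the farthest in each, and 0 points are filled in flox/flox against wt/flox.

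By role, with all fold changes set against wt/wt, the members were as follows. Among the lectin pathway genes, both proteases rose and neither lectin passed. Masp1 encodes a protease that activates the lectin pathway, and was at 217, 252 and 231 CPM in flox/flox, 204 and 219 CPM in wt/flox and 129, 115 and 129.6 CPM in wt/wt. Masp2, whose product cleaves C4 and C2, was at 241, 271 and 286 CPM in flox/flox, 278 and 256 CPM in wt/flox and 183, 173 and 172 CPM in wt/wt. Every flox/flox and wt/flox library was above every wt/wt library for both. Masp1 rose 1.82-fold in flox/flox (log2 0.86, SE 0.11, edgeR adjusted p = 0.00397) and 1.75-fold in wt/flox (log2 0.80, SE 0.12, edgeR adjusted p = 0.0172). Masp2 rose 1.48-fold in flox/flox (log2 0.57, SE 0.12, edgeR adjusted p = 0.0131) and 1.54-fold in wt/flox (log2 0.63, SE 0.13, edgeR adjusted p = 0.0258). Mbl2, a mannose-binding lectin, was at 243, 439 and 386 CPM in flox/flox, 258 and 222 CPM in wt/flox and 259, 209 and 380.3 CPM in wt/wt, with its high values in the 3 female libraries. Mbl1, the other mannose-binding lectin, ranged over 110.2 to 138 CPM in flox/flox, 151 to 173 CPM in wt/flox and 148 to 157 CPM in wt/wt. The fitted difference was log2 0.09 (SE 0.14, edgeR adjusted p = 0.670) in flox/flox and log2 0.05 (SE 0.16, edgeR adjusted p = 0.855) in wt/flox for Mbl2, and log2 −0.26 (SE 0.13, edgeR adjusted p = 0.170) in flox/flox and log2 0.09 (SE 0.14, edgeR adjusted p = 0.715) in wt/flox for Mbl1. Scaled by library size alone, Mbl1 was the 1 member called lower in flox/flox, and Mbl2 turned below 0 without being called. With the trend over exon length removed, Mbl2 passed in flox/flox at log2 0.53 (edgeR adjusted p = 0.0439).

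The genes of the C3 convertases rose together in flox/flox, 4 of 4. C4b encodes C4, the source of the convertase's membrane-bound part, and was at 3600.3, 3153 and 3379 CPM in flox/flox, 3097 and 3290.0 CPM in wt/flox and 1322, 1301 and 2051 CPM in wt/wt. C2, its protease partner, was at 258, 150.4 and 187 CPM in flox/flox, 188 and 224 CPM in wt/flox and 107, 95.5 and 101 CPM in wt/wt. Cfb encodes factor B, the corresponding protease of the alternative pathway, and was at 1862, 2194 and 2042 CPM in flox/flox, 1773 and 2079 CPM in wt/flox and 1054, 1231 and 1366 CPM in wt/wt. In these 3 genes every flox/flox and wt/flox library exceeded every wt/wt library. C4b rose 2.09-fold in flox/flox (log2 1.06, SE 0.19, edgeR adjusted p = 0.00836) and 2.21-fold in wt/flox (log2 1.14, SE 0.22, edgeR adjusted p = 0.0233). C2 rose 2.07-fold in flox/flox (log2 1.05, SE 0.18, edgeR adjusted p = 0.00697) and 1.89-fold in wt/flox (log2 0.92, SE 0.20, edgeR adjusted p = 0.0288). Cfb rose 1.59-fold in flox/flox (log2 0.67, SE 0.14, edgeR adjusted p = 0.0145) and 1.67-fold in wt/flox (log2 0.74, SE 0.16, edgeR adjusted p = 0.0275). C3, which both convertases cleave, had the highest CPM of the 39 in every library. It was at 18719, 26777 and 20795 CPM in flox/flox, 12794 and 15245 CPM in wt/flox and 7680.3, 7695 and 14677 CPM in wt/wt. The lowest flox/flox library exceeded the highest wt/wt library, whereas wt/wt replicate 3 fell between the 2 wt/flox libraries. C3 rose 1.99-fold in flox/flox (log2 0.99, SE 0.22, edgeR adjusted p = 0.0150), and its wt/flox difference did not pass (log2 0.76, SE 0.24, edgeR adjusted p = 0.0764). C4b has a near copy in C4a, and C2 and Cfb overlap the gene Gm20547 on the same strand, so how the authors' counting split their reads is uncertain. Same-strand genes also overlap C3 (Mir6978), F5 (Gm16588), Klkb1 (Gm45753), Serpinc1 (Gm37729) and Cpb2 (Gm18147 and Gm44482), with the same uncertainty.

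Of the 6 terminal components, Hc and C8a rose and 4 did not pass. Hc, the mouse gene of C5, whose cleavage starts the pore, was at 3108, 2492 and 2034 CPM in flox/flox, 2694 and 3201 CPM in wt/flox and 1314, 1154 and 1256 CPM in wt/wt. Each wt/wt library lay below each of the other 5. Hc rose 2.13-fold in flox/flox (log2 1.09, SE 0.18, edgeR adjusted p = 0.00649) and 2.25-fold in wt/flox (log2 1.17, SE 0.20, edgeR adjusted p = 0.0196). C8a, the alpha chain of C8, was at 1327, 529 and 532 CPM in flox/flox, 1348 and 1517 CPM in wt/flox and 797, 898 and 426 CPM in wt/wt, and flox/flox and wt/wt overlapped, with the female libraries lowest in flox/flox and in wt/wt. C8a rose 1.40-fold in flox/flox (log2 0.48, SE 0.14, edgeR adjusted p = 0.0366) and 1.63-fold in wt/flox (log2 0.70, SE 0.15, edgeR adjusted p = 0.0296). C8g, the gamma chain of C8, ranged over 248 to 287 CPM in flox/flox, 301 to 304 CPM in wt/flox and 199 to 259.8 CPM in wt/wt, and its fitted difference was log2 0.21 (SE 0.15, edgeR adjusted p = 0.316) in flox/flox and log2 0.31 (SE 0.16, edgeR adjusted p = 0.217) in wt/flox. C6, C8b and C9 had fitted differences from wt/wt of log2 0.08 (SE 0.61), 0.23 (SE 0.16) and 0.35 (SE 0.20) in flox/flox, and their levels by library are given with the sexes.

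Among the complement inhibitors, C4bp and Cfi rose in flox/flox and Serping1 did not pass. C4bp, which binds C4b and speeds the decay of its convertase, was at 1029, 802 and 796 CPM in flox/flox, 941 and 859 CPM in wt/flox and 465, 514 and 484 CPM in wt/wt. Cfi, the protease that cuts C4b and C3b, was at 1086, 1157 and 981 CPM in flox/flox, 978 and 927 CPM in wt/flox and 615, 659 and 762 CPM in wt/wt. No flox/flox or wt/flox library of either gene fell to the level of a wt/wt library. C4bp rose 1.86-fold in flox/flox (log2 0.90, SE 0.13, edgeR adjusted p = 0.00515) and 1.76-fold in wt/flox (log2 0.82, SE 0.15, edgeR adjusted p = 0.0212). Cfi rose 1.55-fold in flox/flox (log2 0.63, SE 0.14, edgeR adjusted p = 0.0150), and its wt/flox difference did not pass (log2 0.53, SE 0.15, edgeR adjusted p = 0.0574). Serping1, the serpin of C1s, the MASPs and kallikrein, ranged over 671 to 734 CPM in flox/flox, 671 to 705 CPM in wt/flox and 509 to 688 CPM in wt/wt, and its fitted difference was log2 0.26 (SE 0.14, edgeR adjusted p = 0.206) in flox/flox and log2 0.34 (SE 0.17, edgeR adjusted p = 0.197) in wt/flox. C4bp has a pseudogene of similar sequence, so its reads may have been split.

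Of the 8 coagulation proteases, cofactors and subunits, 5 rose in both comparisons with wt/wt. F5, the cofactor of factor Xa in the complex that makes thrombin, was at 1199, 1483 and 1358 CPM in flox/flox, 1409 and 1208 CPM in wt/flox and 542, 559 and 626 CPM in wt/wt. F11, the zymogen of the protease that activates factor IX, was at 163, 162 and 159 CPM in flox/flox, 156 and 166 CPM in wt/flox and 93.5, 88.7 and 78.1 CPM in wt/wt. The 3 wt/wt libraries lay below the other 5 by a wide gap in both genes, while flox/flox and wt/flox overlapped. F5 rose 2.22-fold in flox/flox (log2 1.15, SE 0.13, edgeR adjusted p = 0.00325) and 2.39-fold in wt/flox (log2 1.26, SE 0.14, edgeR adjusted p = 0.0147). F11 rose 1.92-fold in flox/flox (log2 0.94, SE 0.11, edgeR adjusted p = 0.00345) and 1.81-fold in wt/flox (log2 0.86, SE 0.12, edgeR adjusted p = 0.0155). F13b, the carrier subunit of the fibrin-crosslinking enzyme, was at 293, 383 and 337 CPM in flox/flox, 283 and 264 CPM in wt/flox and 198, 173 and 209 CPM in wt/wt. F9, the vitamin K-dependent protease missing in haemophilia B, was at 345, 392 and 313 CPM in flox/flox, 319 and 319.5 CPM in wt/flox and 216, 200.0 and 235 CPM in wt/wt. F7, which starts coagulation with tissue factor, was at 119.5, 205 and 177 CPM in flox/flox, 113 and 116 CPM in wt/flox and 80.8, 84.7 and 112 CPM in wt/wt. F13b and F9 were lowest in the 3 wt/wt libraries, and so was F7, by a margin of less than 1 CPM between wt/flox replicate 1 and wt/wt replicate 3.

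F13b rose 1.65-fold in flox/flox (log2 0.72, SE 0.12, edgeR adjusted p = 0.00725) and 1.50-fold in wt/flox (log2 0.58, SE 0.13, edgeR adjusted p = 0.0329). F9 rose 1.58-fold in flox/flox (log2 0.66, SE 0.13, edgeR adjusted p = 0.0110) and 1.51-fold in wt/flox (log2 0.59, SE 0.14, edgeR adjusted p = 0.0377). F7 rose 1.57-fold in flox/flox (log2 0.65, SE 0.12, edgeR adjusted p = 0.00876) and 1.42-fold in wt/flox (log2 0.51, SE 0.13, edgeR adjusted p = 0.0415). The remaining 3 genes of this role did not pass. F2, prothrombin, was at 1669.7, 2088 and 1890.2 CPM in flox/flox, 1821 and 1641 CPM in wt/flox and 1286, 1389.5 and 1608 CPM in wt/wt. Its wt/wt libraries were the lowest but came close to the others, and the fitted difference was log2 0.31 (SE 0.13, edgeR adjusted p = 0.113) in flox/flox and log2 0.37 (SE 0.15, edgeR adjusted p = 0.128) in wt/flox. F10, the protease that cuts prothrombin, ranged over 382 to 516 CPM in flox/flox, 392 to 402 CPM in wt/flox and 286 to 373 CPM in wt/wt, and F12, the first factor of the contact pathway, over 473 to 491 CPM in flox/flox, 413 to 454 CPM in wt/flox and 316 to 398 CPM in wt/wt. In both, wt/wt did not overlap flox/flox or wt/flox, and neither passed: log2 0.36 (SE 0.12, edgeR adjusted p = 0.0622) in flox/flox and log2 0.41 (SE 0.13, edgeR adjusted p = 0.0772) in wt/flox for F10, and log2 0.39 (SE 0.13, edgeR adjusted p = 0.0604) in flox/flox and log2 0.28 (SE 0.15, edgeR adjusted p = 0.220) in wt/flox for F12. Scaled by library size alone, F2 turned below 0 in flox/flox and F12 in wt/flox, uncalled.

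Both genes of the contact system rose. Klkb1, plasma prekallikrein, was at 642, 798 and 686 CPM in flox/flox, 796 and 697 CPM in wt/flox and 383, 386 and 341 CPM in wt/wt. Kng1, kininogen, which carries prekallikrein and releases bradykinin, was at 2517, 3574 and 3230.3 CPM in flox/flox, 2682 and 2558 CPM in wt/flox and 1554, 1479.8 and 2080.5 CPM in wt/wt. The groups did not overlap between wt/wt and either other genotype, although Kng1 in wt/wt replicate 3 stood above the other wt/wt libraries. Klkb1 rose 1.90-fold in flox/flox (log2 0.93, SE 0.15, edgeR adjusted p = 0.00604) and 2.02-fold in wt/flox (log2 1.02, SE 0.16, edgeR adjusted p = 0.0172). Kng1 rose 1.65-fold in flox/flox (log2 0.72, SE 0.13, edgeR adjusted p = 0.00902) and 1.72-fold in wt/flox (log2 0.79, SE 0.15, edgeR adjusted p = 0.0214). Kng1 has a near copy in Kng2, so the division of reads between them is uncertain.

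**Figure D3:**
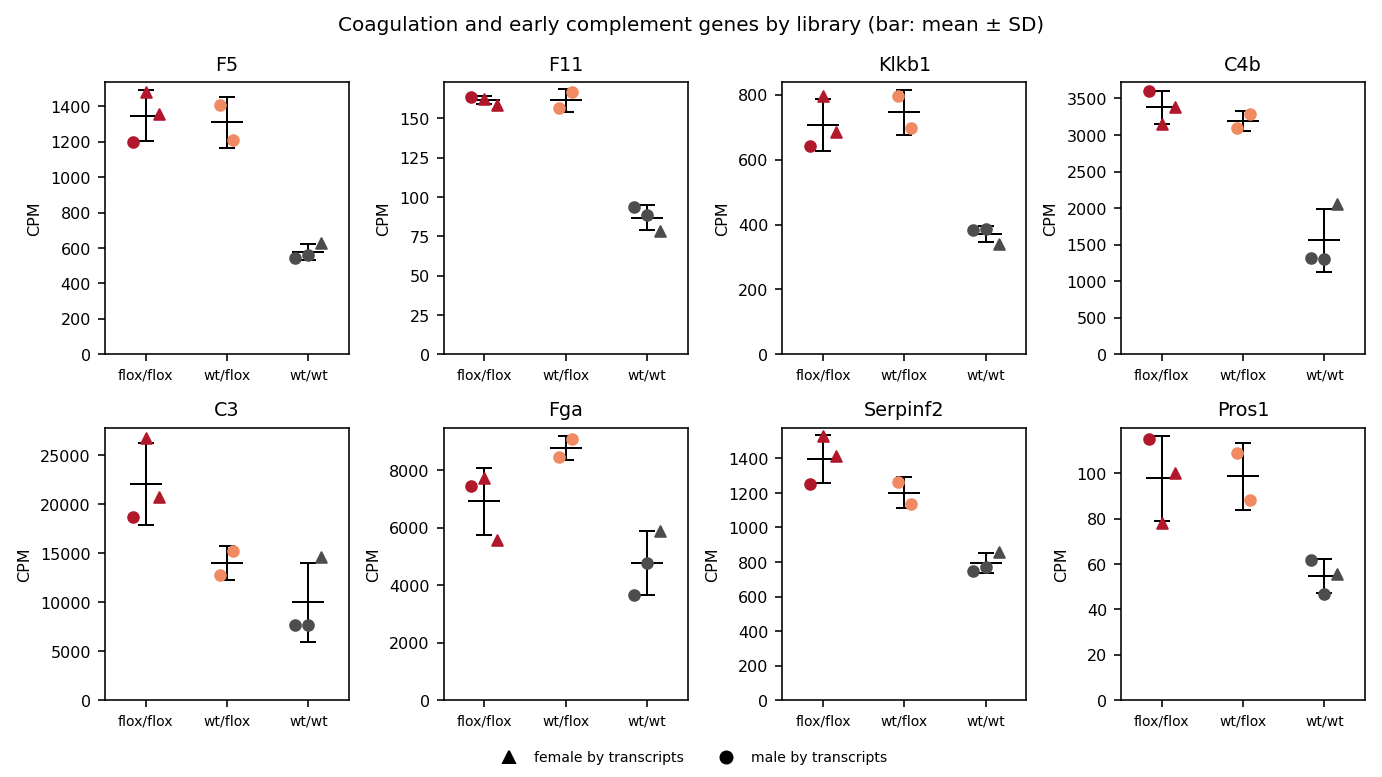
CPM of 8 coagulation, fibrinolysis and early complement genes in each library (triangles female, circles male by transcripts), with the mean ± SD of 3 flox/flox, 2 wt/flox and 3 wt/wt libraries. F5, F11, Klkb1, C4b, Serpinf2 and Pros1 show wt/wt below both other genotypes, Fga is highest in wt/flox, and C3 is high in wt/wt replicate 3.

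The levels of the fibrinogen chains varied together between libraries. Fga, the alpha chain, was at 7433, 7729 and 5559 CPM in flox/flox, 8462 and 9064 CPM in wt/flox and 3643, 4771 and 5897 CPM in wt/wt. Fgb, the beta chain, was at 5730.3, 6206 and 4401 CPM in flox/flox, 6723 and 6886 CPM in wt/flox and 3257, 3603 and 4306 CPM in wt/wt. Fgg, the gamma chain, was at 4922, 5354 and 3870.3 CPM in flox/flox, 5679 and 6159 CPM in wt/flox and 2816, 3414 and 3968 CPM in wt/wt. In all 3 chains the wt/flox libraries stood above every other library, and flox/flox replicate 3 was close to wt/wt replicate 3. Fgb rose 1.88-fold (log2 0.91, SE 0.22, edgeR adjusted p = 0.0373) and Fgg 1.80-fold (log2 0.85, SE 0.23, edgeR adjusted p = 0.0468) in wt/flox against wt/wt. Fga did not pass there (log2 0.94, SE 0.26, edgeR adjusted p = 0.0526). In flox/flox against wt/wt 0 of the 3 chains passed in edgeR, with Fgb alone at an unadjusted p under 0.05, and the differences were log2 0.50 for Fga, 0.52 for Fgb and 0.44 for Fgg.

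Of the 4 anticoagulant genes, 3 rose in flox/flox. Serpinc1, antithrombin, was at 2391, 3151 and 2654 CPM in flox/flox, 2586 and 2299.7 CPM in wt/flox and 1654, 1746 and 1991 CPM in wt/wt. Serpind1, heparin cofactor II, which inhibits thrombin, was at 737, 1039.6 and 887 CPM in flox/flox, 801 and 818 CPM in wt/flox and 519, 537 and 520.4 CPM in wt/wt. Pros1, protein S, the cofactor of activated protein C, was at 115, 78.1 and 100.2 CPM in flox/flox, 109 and 88.1 CPM in wt/flox and 61.6, 46.7 and 55.6 CPM in wt/wt. In each of these genes the wt/wt libraries were the lowest 3 of the 8. Serpinc1 rose 1.43-fold in flox/flox (log2 0.52, SE 0.15, edgeR adjusted p = 0.0346), and its wt/flox difference did not pass (log2 0.53, SE 0.16, edgeR adjusted p = 0.0637). With the trend over exon length removed, Serpinc1 did not pass in flox/flox (log2 0.29, edgeR adjusted p = 0.214). Serpind1 rose 1.61-fold in flox/flox (log2 0.68, SE 0.15, edgeR adjusted p = 0.0148) and 1.60-fold in wt/flox (log2 0.68, SE 0.16, edgeR adjusted p = 0.0331). Pros1 rose 1.85-fold in flox/flox (log2 0.89, SE 0.18, edgeR adjusted p = 0.0125) and 1.73-fold in wt/flox (log2 0.79, SE 0.20, edgeR adjusted p = 0.0438). The gene of protein C itself did not pass. Proc ranged over 352 to 373 CPM in flox/flox, 370.1 to 402 CPM in wt/flox and 291 to 325 CPM in wt/wt, without overlap with wt/wt, and its fitted difference was log2 0.26 (SE 0.12, edgeR adjusted p = 0.134) in flox/flox and log2 0.33 (SE 0.13, edgeR adjusted p = 0.121) in wt/flox, which turned below 0 with library size alone.

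The 3 genes of fibrinolysis rose in both comparisons. Plg, plasminogen, the zymogen of plasmin, was at 2652, 3356 and 3153 CPM in flox/flox, 2956 and 2697 CPM in wt/flox and 1869, 1844 and 2382 CPM in wt/wt. Serpinf2, the plasmin inhibitor antiplasmin, was at 1249, 1528 and 1413 CPM in flox/flox, 1264 and 1138 CPM in wt/flox and 749, 773 and 860.4 CPM in wt/wt. Cpb2, the carboxypeptidase that protects fibrin from plasmin, was at 402, 443 and 385 CPM in flox/flox, 431 and 426 CPM in wt/flox and 315, 291 and 319 CPM in wt/wt. The zymogen and both of its opponents were lowest in wt/wt, without overlap with flox/flox or wt/flox. Plg rose 1.40-fold in flox/flox (log2 0.48, SE 0.13, edgeR adjusted p = 0.0330) and 1.51-fold in wt/flox (log2 0.60, SE 0.15, edgeR adjusted p = 0.0391). Serpinf2 rose 1.68-fold in flox/flox (log2 0.74, SE 0.13, edgeR adjusted p = 0.00697) and 1.59-fold in wt/flox (log2 0.67, SE 0.14, edgeR adjusted p = 0.0258). Cpb2 rose 1.31-fold in flox/flox (log2 0.39, SE 0.12, edgeR adjusted p = 0.0416) and 1.41-fold in wt/flox (log2 0.49, SE 0.13, edgeR adjusted p = 0.0448).

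Hrg, histidine-rich glycoprotein, which binds plasminogen, heparin and fibrinogen, was at 820.0, 1032 and 1075 CPM in flox/flox, 822 and 837 CPM in wt/flox and 560.2, 521 and 644 CPM in wt/wt. Vtn, vitronectin, was at 2825, 3379 and 2881 CPM in flox/flox, 2941 and 2951 CPM in wt/flox and 1932, 2105 and 2216 CPM in wt/wt. For both, all wt/wt libraries lay below all others. Hrg rose 1.57-fold in flox/flox (log2 0.65, SE 0.12, edgeR adjusted p = 0.00830) and 1.55-fold in wt/flox (log2 0.63, SE 0.13, edgeR adjusted p = 0.0253). Vtn rose 1.41-fold in flox/flox (log2 0.49, SE 0.14, edgeR adjusted p = 0.0377), and its wt/flox difference did not pass (log2 0.55, SE 0.16, edgeR adjusted p = 0.0555).

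Between flox/flox and wt/flox, which carry the same batch mark, 0 of 39 genes passed in edgeR, and 0 of 39 had an unadjusted p under 0.05. DESeq2 and limma-voom also called 0 of 39. Over all tested genes edgeR called 0%, and 3.56% had an unadjusted p under 0.05. The fitted differences of the 39 ran from log2 −0.54 for C6 to 0.23 for C3, with SEs of 0.13 to 0.75 and a median of −0.06. For F5 the difference was log2 −0.11 (SE 0.16), for F11 0.08 (SE 0.13) and for Klkb1 −0.09 (SE 0.18). Fga, Fgb and Fgg had log2 −0.45, −0.39 and −0.41, with every flox/flox library below both wt/flox libraries. Libraries did not overlap in 5 members that were higher and 8 that were lower in flox/flox, against 14.2% and 13.1% of all tested genes. Overlap was judged on CPM without the sex term, and both wt/flox libraries are male, while 2 of 3 flox/flox libraries are female. The 8 include C6, C8a and C8b, which were lower in every female library, so genotype and sex are mixed in these counts. With 3 libraries against 2, the fitted differences and their SEs do not show that the levels were equal.

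Of the 6 terminal components, 4 had lower levels in every female library than in any male one, over all genotypes. C6, which with C7 extends the forming pore, was at 614, 6.37 and 40.5 CPM in flox/flox, 617 and 670.3 CPM in wt/flox and 338, 339 and 38.1 CPM in wt/wt. C8b, the beta chain of C8, was at 522, 259 and 242 CPM in flox/flox, 536 and 721 CPM in wt/flox and 406, 383 and 243 CPM in wt/wt. C9, which polymerises into the pore's wall, was at 1140.1, 389 and 405 CPM in flox/flox, 917 and 1175 CPM in wt/flox and 799, 619 and 396 CPM in wt/wt. For these 3 genes and C8a, every female library (flox/flox replicates 2 and 3, wt/wt replicate 3) lay below every male library. C8a was 2.23-fold lower in female libraries (log2 −1.16, SE 0.14, edgeR adjusted p = 0.0107). It was the 1 member of 39 that passed between the sexes, where 0.978% of tested genes passed. C9 was 2.27-fold lower in female libraries (log2 −1.18, SE 0.20, edgeR adjusted p = 0.0502), C6 15.3-fold lower in female libraries (log2 −3.93, SE 0.68, edgeR adjusted p = 0.0557) and C8b 1.84-fold lower in female libraries (log2 −0.88, SE 0.16, edgeR adjusted p = 0.0614), and these 3, named after their values were seen, missed the threshold. Over 19 alternatives C6 ran from log2 −6.34 to −3.14 and was called in 6, C9 from −1.52 to −0.83 and called in 3, and C8b from −1.06 to −0.69 and called in 2.

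Hc and C8g, the other terminal genes, overlapped between the sexes, with 1256 to 2492 CPM in the 3 female libraries and 1154 to 3201 CPM in the 5 male libraries for Hc and 199 to 287 CPM in the 3 female libraries and 248 to 304 CPM in the 5 male libraries for C8g. Mbl2 went the other way, with 380.3 to 439 CPM in the 3 female libraries and 209 to 259 CPM in the 5 male libraries. Its difference was log2 0.73 (SE 0.14, edgeR adjusted p = 0.0775). Non-overlap of the sexes thus held for 4 members that were lower in female libraries and 1 that was higher, against 3.59% and 3.8% of all tested genes. Of the 17 coagulation genes 0 were called in edgeR, 3 had an unadjusted p under 0.05 (14.5% of tested genes), and their fitted differences ran from log2 −0.17 to 0.56. C8a was called in 15 of the 19 alternatives, with log2 values between −1.33 and −0.98. Its call was lost without flox/flox replicate 1, without wt/wt replicate 2, without both libraries of contradicted sex and with the replicate number as a block beside sex. DESeq2 called 7 members, 3 higher and 4 lower in female libraries, and 4.47% of all genes. Of the Kupffer cell markers 14 of 14 had log2 differences above 0 in female libraries, with 0 called in edgeR and 14 at an unadjusted p under 0.05, and so had 12 of 12 sinusoidal endothelial markers, with 0 called and 10 at an unadjusted p under 0.05. Ages by label were 7 and 9 weeks for the female libraries and 9 and 11 weeks for the male ones. The part of these cells and of age in the sex differences was not tested.

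**Figure D4:**
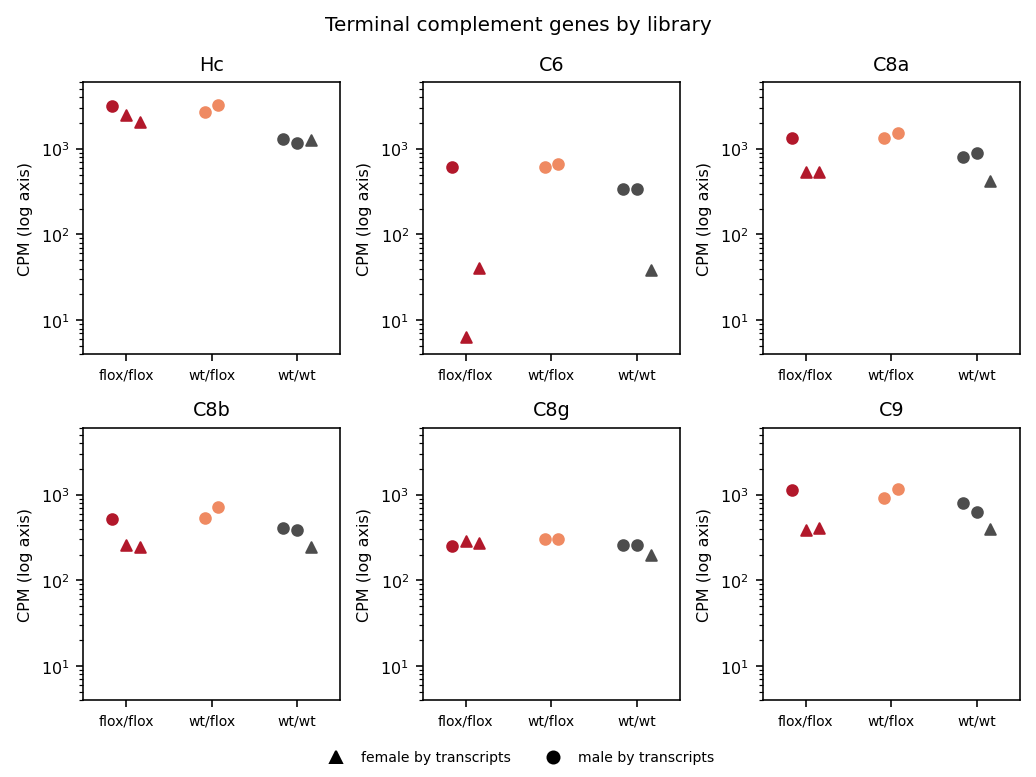
CPM of the 6 terminal complement genes in each library (log axis, triangles female and circles male by transcripts), by genotype. In C6, C8a, C8b and C9 the 3 female libraries sit below the 5 male ones in the flox/flox and wt/wt groups alike, and in Hc and C8g the sexes overlap over the 8 libraries.

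Whether the difference of flox/flox from wt/wt depended on sex was tested with an interaction term added after the data were seen. In edgeR 0 of 39 members passed, against 0.0407% of tested genes, with 2 members at an unadjusted p under 0.05, against 11.1%. By transcripts flox/flox holds 1 male library and wt/wt 1 female library, and the fit has 3 residual degrees of freedom, so these counts do not show that the difference is alike in both sexes. The smallest adjusted p among the members was 0.367, for C4b.

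Ratios within a library do not depend on its scaling, and they were taken between chains of 1 protein, or between partners, on the CPM per kilobase scale. The height of a ratio depends on the exon lengths used, so it does not show which transcript is more abundant. Its change between libraries does not depend on them. Fga over Fgg stayed between 0.90 and 1.05 and Fgb over Fgg between 0.58 and 0.65 over the 8 libraries, while the chains' own levels differed more than 2-fold between the lowest and highest library. C8a over C8g was 0.756 to 0.876 in female and 1.26 to 2.19 in male libraries. C8b over C8g was 0.526 to 0.715 in female and 0.865 to 1.39 in male libraries. By CPM per kilobase the gamma chain of C8 was the highest of the 3 in female libraries, and C8a was in male ones. In CPM not divided by length (3636 bases for C8a, 1493 for C8g), C8a was above C8g in every library. Which chain is highest therefore depends on the lengths used. C8a over C8b ranged from 1.23 to 1.54 in female and 1.38 to 1.78 in male libraries, which overlap. Mbl2 over Mbl1 was 3.64 to 5.05 in female and 1.85 to 2.71 in male libraries. F2 over Serpinc1, prothrombin over antithrombin, was 1.30, 1.23 and 1.33 in flox/flox, 1.31 and 1.33 in wt/flox and 1.45, 1.48 and 1.50 in wt/wt. The wt/wt ratios were the highest 3 of the 8. In flox/flox against wt/wt the fitted differences of F2 and Serpinc1 were log2 0.31 and 0.52. With the trend over exon length removed they were log2 0.295 and 0.292, so the shift of this ratio was not seen in that fit. In CPM not divided by length (4594 bases for F2, 8546 for Serpinc1), Serpinc1 was above F2 in every library. These ratios were not tested.

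**Figure D5:**
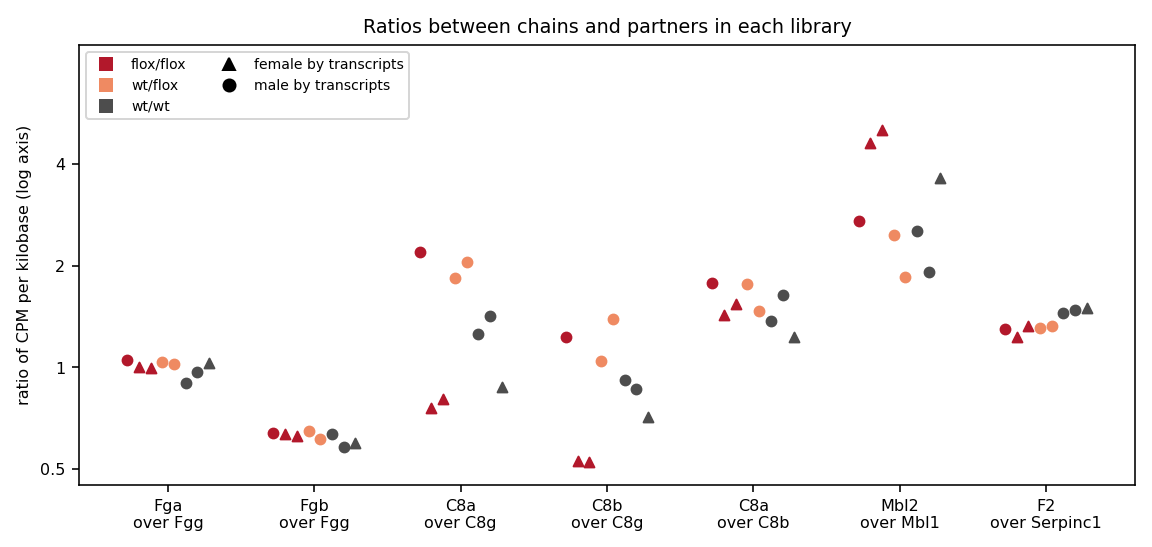
Ratio of CPM per kilobase between chains or partners in each library (log axis), coloured by genotype, triangles female and circles male by transcripts. The fibrinogen ratios form tight rows near 1 and 0.6, whereas C8a over C8g and C8b over C8g are lower, and Mbl2 over Mbl1 higher, in the 3 female libraries.

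Other genes of the same pathways were taken from lists written with earlier results known, and are given for flox/flox against wt/wt. Of 30 other complement genes 26 were tested, 4 rose and 4 fell (median −0.15 on the log2 scale), close to the shares of all tested genes, 14.5% and 14.6%. C1s1, the protease of the classical pathway, rose 1.78-fold. C5ar1, a receptor of C5a on myeloid cells, fell 5.87-fold, and Cd55, a membrane inhibitor of the convertases, fell 1.96-fold. C5ar1 was below 1 CPM in every library. Of 25 other coagulation and fibrinolysis genes 23 were tested, 5 rose and 1 fell, with a median of 0.37. Kng2 rose 1.86-fold, Pzp (a broad protease inhibitor of plasma) 2.04-fold and Serpina10 (the inhibitor of factor Xa that works with protein Z) 1.53-fold, while Tfpi2, a Kunitz-type protease inhibitor, fell 1.54-fold. The named genes of these and the following lists had edgeR adjusted p values of 0.00348 to 0.0315.

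Of the 9 genes of the vitamin K cycle and of factor secretion, 6 rose and 0 fell (median 0.54 on the log2 scale). Ggcx, the carboxylase that modifies the vitamin K-dependent factors, was at 190.0, 258 and 209 CPM in flox/flox, 202 and 211 CPM in wt/flox and 103, 118 and 126 CPM in wt/wt, and rose 1.79-fold. Pcsk5, a proprotein convertase, rose 2.08-fold, Tmx1, a thioredoxin-like protein of the endoplasmic reticulum, 1.62-fold, and Vkorc1l1, a relative of the vitamin K reductase, 1.35-fold. Of 16 listed transcription factors and cofactors of hepatocytes 1 rose and 0 fell (median −0.17). Nr1i3, the nuclear receptor CAR, was at 71.0, 116 and 115 CPM in flox/flox, 61.4 and 48.7 CPM in wt/flox and 44.1, 42.6 and 68.5 CPM in wt/wt, and rose 1.66-fold.

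Several members lie side by side on GRCm38 (GENCODE M21). The fibrinogen chains occupy 42.1 kilobases of chromosome 3 (83007724 to 83049863), in the order Fgg, Fga and Fgb. C8b and C8a lie 11.13 kilobases apart on chromosome 4, F7 and F10 lie 1.5 kilobases apart on chromosome 8, and F11 and Klkb1 lie 4.66 kilobases apart on the same chromosome. Neighbours had similar fitted changes in flox/flox against wt/wt in F11 (log2 0.94) and Klkb1 (log2 0.93), and less similar ones in F7 (log2 0.65) and F10 (log2 0.36). C2 and Cfb are separated by 85 bases on chromosome 17. C6 and C9, whose libraries separated by sex, are on chromosome 15 but 1630.4 kilobases apart.

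Fold changes in flox/flox against wt/wt differed by exon length over all genes. Their median on the log2 scale was 0.97 for 300 genes under 500 bases of exon and −0.53 for 376 genes of 500 to 1000 bases, classes that hold 0 members. It was −0.42 for genes of 1000 to 2000 bases of exon, −0.18 for 2000 to 4000, 0.08 for 4000 to 8000 and 0.30 for 8000 bases or more. For the members in these last 4 classes the medians were 0.39 (7 genes), 0.51 (22 genes), 0.96 (8 genes) and 0.69 (2 genes), each above that of all genes of like length. F5, C4b, Hc and C3 belong to the class of 4000 to 8000 bases. With the trend removed, 29 of 39 rose and 0 fell in flox/flox, where 22.1% of all genes were called in either direction. Mbl2, C8g, F10, F12 and Proc were then called and Serpinc1 was not. In wt/flox 20 rose and 0 fell (5.13% of all genes called), with C8g and Vtn then called and Masp1, C4bp, Fgb, Pros1 and Plg not, at edgeR adjusted p values of 0.0508 to 0.0565.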

How the data were processed

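The authors deposited a table for each library, which per the file headers gives raw counts per gene symbol for sense and for antisense reads. GRCm38 (mm10) and DESeq2 are named by the submitters' processing notes. No aligner, counter or annotation is named in these sources. Sense counts of 25229 genes were used, and 5 rows that name no gene were left out. The deposited counts hold multiply aligned reads in a row of their own, so genes with near copies may be under-counted. Sense gene reads ranged from 75875711 to 132303735 per library, and no pair of the 8 libraries agreed within sampling noise.

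All 8 libraries entered 1 fit in edgeR 4.0.16 (R 4.3.3) with the quasi-likelihood F test, TMM, filterByExpr (14728 genes kept), and genotype and sex as terms (4 residual degrees of freedom), two-sided with Benjamini-Hochberg adjustment at 0.05 over all tested genes. Sex was female where Xist reads exceeded summed Y-linked reads. Fold changes are those of the fit and can differ from ratios of group means. Whether the libraries of 2 groups overlap was judged on CPM, without the sex term. The scripts were tested on simulated data. Each replicate is a separate mouse by its labels. Coordinates and exon lengths came from GENCODE M21 (24369 symbols matched), and promoters from RefSeq GRCm38.p6.

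Alternatives were the labelled sex, no sex term, RLE and upper-quartile factors, library size alone, limma-voom 3.58.1, DESeq2 1.42.0, a filter at a mean of 1 CPM or none, the replicate number as a block, the 2 groups alone, each library or the contradicted ones left out, antisense added, and an exon length trend removed. The sex by genotype interaction was added after seeing the data.

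The members, lists and alternatives were chosen with earlier results of these data known. By rule, values per library were given for members called in a genotype comparison and for the highest per role, and of each other list up to 4 called genes were named, of which 1 is not reported here.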

Additional observations from a re-analysis of the deposited data

How the results depend on the processing

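Of single-member fold changes under all alternatives, 2888 kept direction and side of the threshold, 169 that were called in neither fit changed sign, 306 lost a call, 69 gained one and 0 called values changed sign. Percentages here are shares of all genes called in the same fit. In flox/flox against wt/wt (25 members called, 29.1%), 14 were called with library size alone (32.9%), 12 with the replicate block and sex (12.1%), 3 without the 2 libraries of contradicted sex (6.94%), and 11 to 26 with 1 library left out (12.3% to 26.3%). In wt/flox against wt/wt (23 called, 14.5%), 9 were called with the labelled sex (8.83%), 8 with library size alone (26.5%), 0 with the replicate block and sex (0%, with 31 members at an unadjusted p under 0.05), 9 with the replicate block without sex (9.77%), and 0 to 25 with 1 library left out (0% to 16.5%). Between the sexes (1 called, 0.978%), 2 were called with RLE size factors (0.985%), 4 with no filter (1.22%), 7 with DESeq2 (4.47%), and 0 to 2 with 1 library left out (0.6% to 1.29%). Where 1 wt/flox library is left, it is assumed to vary like the other groups. Between flox/flox and wt/flox 0 members were called under each of the 23 alternatives. Library size alone moved the median of all genes to −0.32 in flox/flox and −0.40 in wt/flox against wt/wt, where the members' medians were 0.24 and 0.28. It turned Mbl2, C6, C8b, C8g, Serping1, F2 and Proc below 0 in flox/flox and Mbl1, Mbl2, C8g, Serping1, F12 and Proc in wt/flox, and none of these 13 values was called. Same-numbered libraries, which share an age by label, had correlations of their deviations from the group means of 0.01 to 0.45 in 7 pairs, against −0.48 to 0.34 in 14 pairs of unlike number. These deviations were not adjusted for sex. Those of the 2 wt/flox libraries mirror each other, so correlations with them come in pairs of opposite sign and are not independent. Not every same-numbered pair was above 0.1, and flox/flox replicate 1 correlated best with wt/wt replicate 2, so the numbers were not taken as pairs. The causes of these changes were not tested. Each member had at least 713 reads in each library.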

Other observations

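C3 alone took 1.71%, 2.29% and 2.07% of sense gene reads in flox/flox, 1.13% and 1.41% in wt/flox and 0.912%, 0.875% and 1.69% in wt/wt. The share in wt/wt replicate 3 came close to that in flox/flox replicate 1 and exceeded those in both wt/flox libraries. Reads on the strand opposite to the 39 genes made up 6.27%, 6.31% and 6.13% of their reads in flox/flox, 5.11% and 5.87% in wt/flox and 6.15%, 6.39% and 6.54% in wt/wt. F12, at 9.03% to 12.3% over the libraries, and Proc, at 9.53% to 12.2%, reached the highest shares of the members, although the range of F7, 7.50% to 9.44%, overlapped that of F12. F9 had the lowest share, at 1.09% to 2.20%. F9 lies on the X chromosome, and its fitted difference between the sexes was not called.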
